A study of Mus musculus with 4 samples.

Results

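The genes described here encode the plasma and cell-surface proteins of complement, blood coagulation and fibrinolysis. They form a list of 53 genes, with the serpins left out, that was measured at every array probe set naming a listed gene alone. The rule for the list names functions and no measured value, though the list was drawn up with earlier results of these data known. Of the 53 genes, 50 had 74 such probe sets among the 45101 of the array, which in all named 18193 genes. *C3*, *Cfd* and *Cpb2* had no probe set of their own in the annotation used and were not analysed here. A gene was tested when a probe set was called Present on at least 2 arrays, which left 47 genes of the list and 10350 genes in all. *C5ar1*, *F13a1* and *Plau* did not reach that level. RNA came from the non-tumorous liver of 2 G9aΔHep mice, labelled G9aKO (Alb-Cre; G9aflox/flox), and of 2 WT mice (Alb-Cre; G9a+/+), with 1 GeneChip array per mouse. G9a is a histone H3K9 methyltransferase encoded by *Ehmt2*, and Cre was expressed from the albumin promoter. The authors found G9a protein lost from isolated hepatocytes. They ascribed the G9a left in whole liver, as probable, to other cells. All 4 mice were males of a line backcrossed to C57BL/6, reached 30 weeks of age, and were given 25 mg/kg of the carcinogen DEN at 15 days of age followed by 22 weekly injections of 0.5 ml/kg of the hepatotoxin CCl4. No untreated liver is part of the comparison.

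Complement and coagulation are cascades of serine proteases that circulate as inactive precursors and activate each other in turn. Hepatocytes make most of these proteins. C1q and properdin come mainly from macrophages and other leukocytes, and thrombomodulin, tissue factor pathway inhibitor, von Willebrand factor and factor VIII from endothelial cells. In the list, 36 genes were counted as liver-made (15 of complement, 21 of coagulation and fibrinolysis), 16 as made by leukocytes or the vessel wall (6 and 10), and *Cfd* as adipocyte-made.

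Each value is a MAS5 signal, which the authors' software corrected for background and scaled per array, with a call of Present, Marginal or Absent per probe set. Present calls were given to 42.8% to 43.9% of probe sets on the G9aΔHep arrays and to 41.3% to 41.9% on the WT arrays, and 95% of Absent signals lay below 170.5 to 180.9, depending on the array. Log2 signals were compared with limma, each gene at its brightest detected probe set, with Benjamini-Hochberg adjustment over all genes at a threshold of 0.05. Over all 10350 genes, 33 passed as higher and 7 as lower in G9aΔHep liver. *Ehmt2* had signals of 174.1 and 163.7 in G9aΔHep liver, both called Absent, against 640.4 and 492.5 in WT liver, both Present. The G9aΔHep level was 0.301-fold that of WT liver (95% interval 0.203 to 0.444, adjusted p = 0.063 from limma). As both G9aΔHep signals were Absent, the true ratio may be lower than the estimate. Whether this probe set lies in the deleted exons was not determined. Hepatocyte markers were Present on every array for 10 of the 10 measured, and 0 of 5 adipocyte markers was detected.

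No member of the list passed the test between genotypes. Among the 47 tested members, 0 reached the limma threshold as higher and 0 as lower (1 and 3 at an unadjusted p under 0.05), while 0.319% and 0.0676% of all genes did so. Those 4 were *Thbd*, which was higher, and *Masp1*, *Masp2* and *Mbl2*, which were lower, and 5.92% and 4.1% of all genes had such a p. The signals of the genotypes did not overlap for 6 members that were higher in G9aΔHep liver and 6 that were lower, against 22.3% and 19.3% of all genes. The smallest adjusted p over the members was 0.279. The 95% interval of the log2 difference lay within 1 in either direction, that is within a 2-fold change, for 37 of the 47 members (71.9% of all genes), and for 31 of the 34 liver-made ones. For the genes made by other cells this held for 6 of 13. In RNA from whole tissue, fewer cells of a type and less RNA per cell cannot be told apart. For 2 mice against 2, the smallest two-sided p of an exact permutation test is 0.33.

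**Figure D1:**
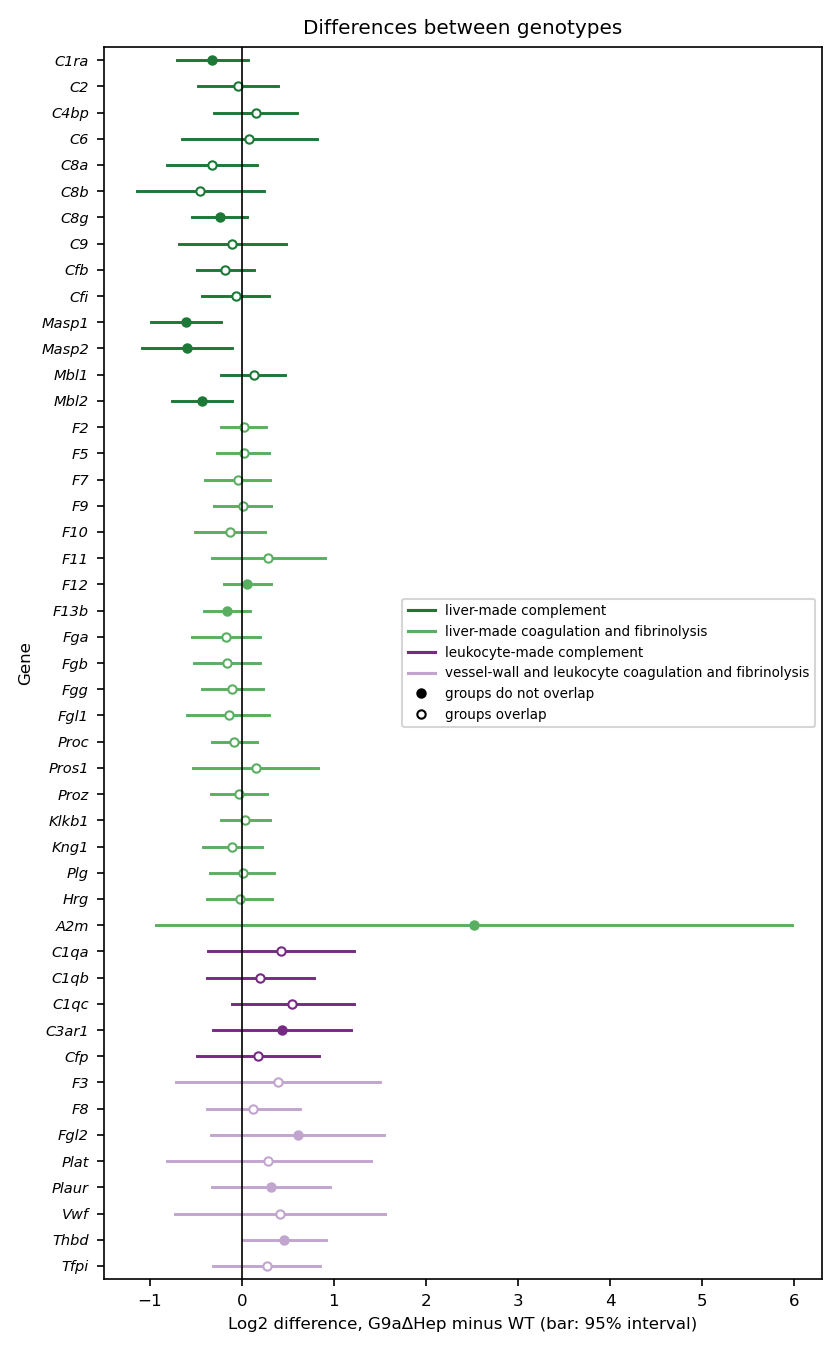
Log2 difference in signal, G9aΔHep minus WT, for the 47 tested genes (rows), with the 95% interval from limma as a bar; filled points mark genes whose 2 G9aΔHep signals do not overlap the 2 WT signals. The liver-made genes other than *A2m* lie between -0.61 and 0.29, and all 13 genes made by leukocytes or the vessel wall lie to the right of 0.

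Of the proteins that start the classical and lectin pathways, *Masp1*, *Mbl2* and *Masp2* of the lectin pathway had the lowest p-values in the list. Mannose-binding lectins recognise sugars on microbes and damaged cells, and the proteases MASP-1 and MASP-2 travel with them and cleave the next components once they bind. *Masp1* had signals of 3472 and 3306 in G9aΔHep liver, against 5874 and 4544 in WT liver. Both G9aΔHep mice lay below both WT mice (log2 difference -0.61, SE 0.15, 95% interval -0.99 to -0.23, adjusted p = 0.279 from limma). *Masp2* had signals of 3103 and 2813 in G9aΔHep liver, against 3673 and 5416 in WT liver. The groups were again apart, with the second WT mouse far above the first (log2 difference -0.59, SE 0.20, adjusted p = 0.421), and the difference was -0.31 without that mouse. *Mbl2*, mannose-binding lectin C, had signals of 19278 and 16236 in G9aΔHep liver, against 25903 and 21911 in WT liver, with no overlap (log2 difference -0.43, SE 0.13, adjusted p = 0.384). *Mbl1*, mannose-binding lectin A, had signals of 12895 and 11193 in G9aΔHep liver, against 12200 and 9943 in WT liver. Here the genotypes overlapped, and the log2 difference was 0.13 (95% interval -0.22 to 0.47). These 4 genes therefore did not lie on the same side of 0, and none passed the test.

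The lower values of *Masp1* and *Masp2* belonged to the brightest probe set of each gene only. The *Masp1* gene is spliced into several secreted proteins, among them the proteases MASP-1 and MASP-3, and *Masp2* also gives a short protein without the protease part; which transcripts each probe set reads was not determined here. At the second-brightest *Masp1* probe set, 1438602_s_at, signals were 1626 and 985.3 in G9aΔHep liver, against 1128 and 1085 in WT liver, where the log2 difference was 0.19 (SE 0.25). At probe set 1425985_s_at they were 1361 and 498.1 in G9aΔHep liver, against 928.1 and 731.4 in WT liver, where the difference between the G9aΔHep mice was the widest. The dimmest detected set, 1438603_x_at, gave 328.5 and 276.9 in G9aΔHep liver, against 253.9 and 263.5 in WT liver, both G9aΔHep signals above both WT signals (log2 difference 0.22, SE 0.23). For *Masp2*, probe set 1451759_at gave 2621 and 2376 in G9aΔHep liver, against 2337 and 2520 in WT liver, where the log2 difference was 0.04 (SE 0.13). With the mean of all detected probe sets in place of the brightest, the difference was -0.05 for *Masp1* and -0.28 for *Masp2*. The ratio of the brightest to this other *Masp2* probe set was 1.18 on both G9aΔHep arrays, against 1.57 and 2.15 on the WT arrays. For *Masp1*, the ratio of the brightest set to 1438602_s_at was 2.14 and 3.36 on the G9aΔHep arrays, against 5.21 and 4.19 on the WT arrays, and that to 1438603_x_at was 10.6 and 11.9, against 23.1 and 17.2. These ratios did not overlap between genotypes, whereas the ratio to 1425985_s_at did, at 2.55 and 6.64 against 6.33 and 6.21. Over all members, 7 of the 19 such ratios did not overlap between genotypes, *Proz*, *Kng1* and 2 of *Tfpi* among them, so that this is not particular to *Masp1* and *Masp2*. The ratios were chosen after their values were seen and have no test. With 2 arrays against 2, ratios without a genotype difference also fail to overlap in about 0.33 of cases. The ratios therefore do not show that the probe sets of a gene differed between genotypes. The _s_at and _x_at sets hold probes that can also match other transcripts.

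**Figure D2:**
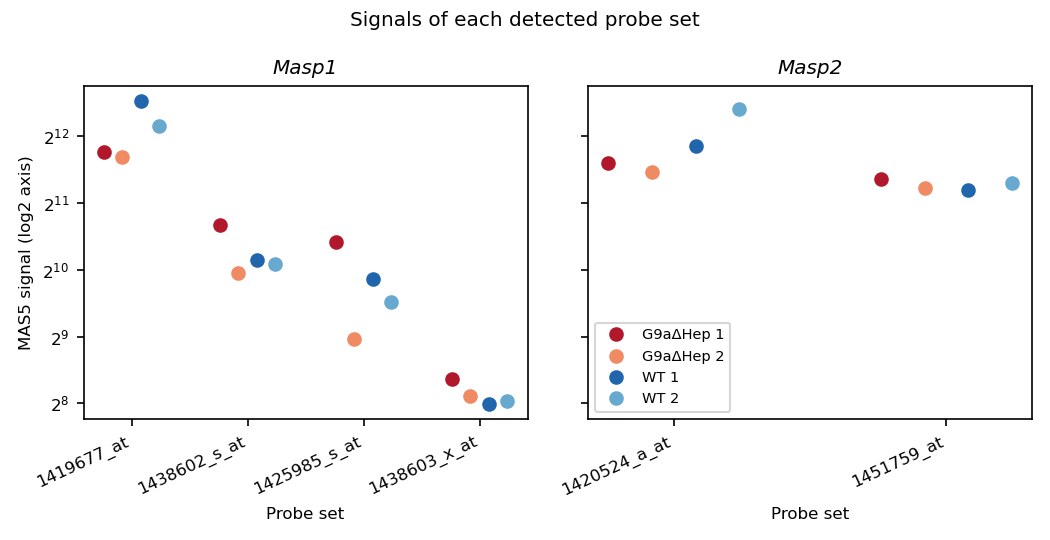
MAS5 signal on a log2 axis at each detected probe set of *Masp1* and *Masp2*, with 1 point per mouse. At the brightest probe set of each gene both G9aΔHep mice lie below both WT mice (3472 and 3306 against 5874 and 4544 for *Masp1*), and at the other probe sets they do not.

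Among the 66 probe sets of the members that were Present on at least 2 arrays, 0 passed the test as higher and 0 as lower, where 0.233% and 0.0466% of all such probe sets did. The groups did not overlap at 10 of the 66 as higher and 8 as lower, against 21.7% and 19.4% of all. Over the 11 members with more than 1 detected probe set, 4 had a set on the other side of 0 than the brightest, namely *Masp1*, *Masp2*, *C2* and *Tfpi*. For *C2*, the differences at its 3 sets were -0.01, -0.04 and 0.02, each smaller than its SE. Its set 1416051_at had signals of 2950 and 2002 in G9aΔHep liver, against 2861 and 2108 in WT liver. Set 1457664_x_at had 3305 and 2043 in G9aΔHep liver, against 2798 and 2363 in WT liver.

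*C2* and *Cfb* are of interest for their position. They encode complement factor 2 and factor B, related serine proteases of the classical and lectin pathways and of the alternative pathway, and lie next to each other on chromosome 17, with 1 protein-coding gene between *C2* and *Ehmt2*. *Cfb* had signals of 14745 and 12547 in G9aΔHep liver, against 16468 and 14416 in WT liver. The ranges overlapped, and the log2 difference was -0.18 (SE 0.13, 95% interval -0.49 to 0.13, adjusted p = 0.693 from limma). *C2* had signals of 3578 and 2605 in G9aΔHep liver, against 3161 and 3106 in WT liver at its brightest probe set, with the WT mice between the G9aΔHep mice (log2 difference -0.04, SE 0.18, 95% interval -0.47 to 0.39). At *Ehmt2* itself, on the same scale, the difference was -1.73 (SE 0.23). *C1ra*, a protease of the C1 complex, had signals of 5103 and 4272 in G9aΔHep liver, against 6487 and 5229 in WT liver, and its groups were apart by little (log2 difference -0.32, SE 0.16, adjusted p = 0.562).

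The terminal components C6, C8 and C9 assemble into the pore that complement inserts into membranes. C8 is a complex of an alpha, a beta and a gamma chain, of which *C8b* and *C8a* are neighbours on chromosome 4. *C8a* had signals of 23131 and 16406 in G9aΔHep liver, against 27649 and 21278 in WT liver (log2 difference -0.32, SE 0.20). *C8b* had 7127 and 4659 in G9aΔHep liver, against 9979 and 6249 in WT liver (log2 difference -0.45, SE 0.28). In both genes the first G9aΔHep mouse lay between the WT mice. *C8g* had 21408 and 21699 in G9aΔHep liver, against 28134 and 23031 in WT liver, and was the one terminal component whose groups did not overlap (log2 difference -0.24, SE 0.12, adjusted p = 0.574 from limma). The 3 chains thus had differences of -0.24 to -0.45, none past the test, and the 95% interval of each included 0. *C9* had signals of 36402 and 25667 in G9aΔHep liver, against 39986 and 26873 in WT liver. The mice of each genotype differed by 1.42-fold and 1.49-fold at this gene, and the genotypes by -0.10 on the log2 scale. *C6* gave a log2 difference of 0.08 (SE 0.30).

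Of the fluid-phase regulators, *C4bp*, which encodes the alpha chain of C4b-binding protein, had signals of 24912 and 19092 in G9aΔHep liver, against 22668 and 17134 in WT liver (log2 difference 0.15, SE 0.18). *Cfi*, the protease factor I that cuts C3b and C4b, had a log2 difference of -0.06 (SE 0.15). Over the 14 tested liver-made complement genes, 11 lay below 0 and 3 above (*C9* and *Cfi* turned to 0.02 and 0.04 after quantile normalization), where 46.6% of all genes lay below 0. Their median was -0.21, against 0.02 over all genes. It was between -0.37 and -0.07 when a single mouse was left out, nearest to 0 at -0.07 without the second G9aΔHep mouse and at -0.09 without the first WT mouse, and it was -0.12 after quantile normalization.

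The leukocyte-made complement genes lay on the other side of 0. C1q, the recognition protein of the classical pathway, is built from A, B and C chains whose genes are adjacent on chromosome 4. *C1qa* had signals of 5848 and 3564 in G9aΔHep liver, against 2583 and 4473 in WT liver. *C1qb* had 4225 and 2605 in G9aΔHep liver, against 3108 and 2671 in WT liver. *C1qc* had 3434 and 2164 in G9aΔHep liver, against 1550 and 2226 in WT liver. In all 3 genes the first G9aΔHep mouse was the highest of the 4 and the second lay within or below the range of the WT mice. The log2 differences were 0.43 (SE 0.33), 0.20 (SE 0.24) and 0.55 (SE 0.27), with adjusted p = 0.711, 0.816 and 0.562 from limma. *C3ar1*, the receptor for the C3a fragment, had signals of 330.9 and 205.0 in G9aΔHep liver, against 184.7 and 199.5 in WT liver, groups that were apart by little (log2 difference 0.44, SE 0.31). At its dimmer detected probe sets, 1419482_at and 1419483_at, the groups overlapped (log2 differences 0.17, SE 0.32, and 0.45, SE 0.35). *Cfp*, which encodes properdin, the stabiliser of the alternative pathway convertase, had 992.2 and 812.3 in G9aΔHep liver, against 617.4 and 1021 in WT liver (log2 difference 0.18, SE 0.27). *C5ar1*, the receptor for C5a, was Absent or Marginal at both of its probe sets on each array.

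All 5 tested leukocyte-made complement genes lay above 0 (53.4% of all genes do), and none passed the test. Their median log2 difference was 0.43, and it was 0.07 without the first G9aΔHep mouse and 0.78 without the second. Of 15 markers of macrophages and Kupffer cells, 15 lay above 0 with a median of 0.51 and 0 passed the test. Their summed signal was 69464 and 42402 in G9aΔHep liver, against 31314 and 44872 in WT liver, highest in the same mouse as the C1q genes and lowest in the same WT mouse as *C1qa* and *C1qc*. *Csf1r*, the receptor for macrophage colony-stimulating factor, had 17673 and 10293 in G9aΔHep liver, against 7774 and 10170 in WT liver, and *Cd5l*, a Kupffer cell product, had 11818 and 7794, against 7165 and 9331. None of the 15 markers was undetected. *Cfp* was instead highest in the second WT mouse, and *C1qb* was lowest in the second G9aΔHep mouse. The summed signal of stellate cell and fibroblast markers ordered the 4 mice as that of the macrophage markers did. It was 20564 and 12648 in G9aΔHep liver, against 10743 and 15369 in WT liver, so this order was not particular to macrophage markers. The part of macrophage content in the C1q values was not tested.

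**Figure D3:**
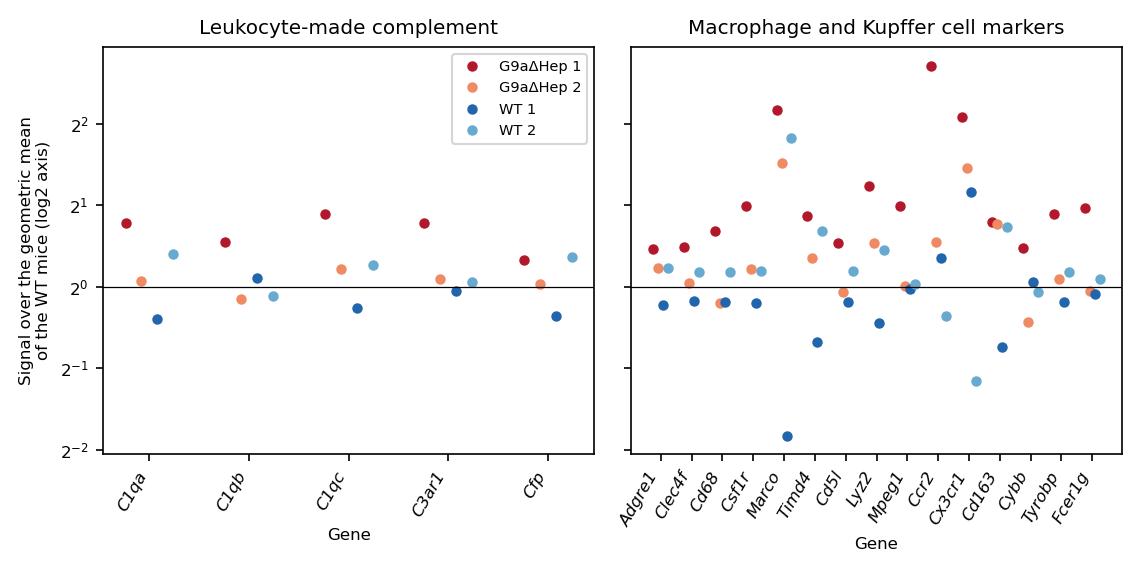
Signal of each gene divided by the geometric mean of the 2 WT mice, on a log2 axis, for the leukocyte-made complement genes and for markers of macrophages and Kupffer cells, with 1 point per mouse. The first G9aΔHep mouse is the highest at all 3 C1q genes, at 5848, 4225 and 3434, while the second lies within or below the range of the WT mice.

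The vitamin K-dependent proteins are clotting proteases and anticoagulants that need carboxylation of glutamate residues to bind membranes. Prothrombin, *F2*, had signals of 46019 and 42636 in G9aΔHep liver, against 45640 and 41876 in WT liver. The mice of the 2 genotypes interleaved, and the log2 difference was 0.02 (SE 0.10, 95% interval -0.22 to 0.26), equal to 1.01-fold with an interval of 0.86 to 1.19. Factor IX, *F9*, had a log2 difference of 0.01 (SE 0.13), and *F7* and *F10*, which with *Proz* form a run of adjacent genes on chromosome 8, had -0.04 (SE 0.15) and -0.13 (SE 0.15). The anticoagulant *Proc*, protein C, had -0.08 (SE 0.10), its cofactor *Pros1*, protein S, had 0.15 (SE 0.28), and *Proz*, protein Z, had -0.03 (SE 0.12). For all 7 of these genes, at the brightest probe set, the groups overlapped and the 95% interval lay within a 2-fold change. The other detected *Proz* set, 1431721_a_at, had 924.0 and 889.5 in G9aΔHep liver, against 1218 and 1016 in WT liver. There the groups did not overlap (log2 difference -0.30, SE 0.17).

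Among the cofactors and the contact system, *F5*, the cofactor of the prothrombin-cleaving complex, had a log2 difference of 0.02 (SE 0.12). *F12*, the factor that starts contact activation, had signals of 8787 and 8686 in G9aΔHep liver, against 8671 and 8074 in WT liver. The groups did not overlap, yet the log2 difference was 0.06 (SE 0.10). *Klkb1*, plasma prekallikrein, and its neighbour *F11* had differences of 0.04 (SE 0.11) and 0.29 (SE 0.25), and *Kng1*, the kininogen that carries both, had -0.10 (SE 0.13). Factor VIII, *F8*, had signals of 648.4 and 514.4 in G9aΔHep liver, against 579.4 and 484.9 in WT liver (log2 difference 0.12, SE 0.21).

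Fibrinogen, the precursor of the fibrin clot, is a dimer of Aα, Bβ and γ chains from the adjacent genes *Fga*, *Fgb* and *Fgg* on chromosome 3. *Fga* had signals of 40070 and 31108 in G9aΔHep liver, against 43183 and 36579 in WT liver. *Fgb* had 69236 and 53881 in G9aΔHep liver, against 73887 and 63258 in WT liver. *Fgg* had 60663 and 49574 in G9aΔHep liver, against 63756 and 54421 in WT liver. The 3 genes ordered the 4 mice in the same way, with the first WT mouse highest, the first G9aΔHep mouse next, then the second WT mouse, and the second G9aΔHep mouse lowest. The log2 differences were -0.17 (SE 0.15), -0.16 (SE 0.15) and -0.10 (SE 0.13), with adjusted p = 0.752, 0.753 and 0.838 from limma. This order of the 4 arrays was found for 13 of the 34 liver-made members, the fibrinogen genes included, and for 4.48% of all genes.

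Because these 3 genes moved together from mouse to mouse, the 250 bases before each start site are shown, 5′ to 3′ on the gene's strand, from RefSeq sequence of GRCm38.p6 (*Fga*, chr3:83025903-83026152, plus strand; *Fgb*, chr3:83049864-83050113, minus strand; *Fgg*, chr3:83007474-83007723, plus strand). Capitals mark matches on either strand to GTTAAT, a core of the site of the liver factor HNF1, and to CTGGGA, a core of the response element for interleukin-6, the cytokine that raises fibrinogen synthesis in acute inflammation.
Fga: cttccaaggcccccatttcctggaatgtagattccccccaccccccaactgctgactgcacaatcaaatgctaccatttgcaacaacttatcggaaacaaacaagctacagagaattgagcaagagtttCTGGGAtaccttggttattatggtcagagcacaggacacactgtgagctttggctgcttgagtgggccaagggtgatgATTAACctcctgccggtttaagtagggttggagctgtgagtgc
Fgb: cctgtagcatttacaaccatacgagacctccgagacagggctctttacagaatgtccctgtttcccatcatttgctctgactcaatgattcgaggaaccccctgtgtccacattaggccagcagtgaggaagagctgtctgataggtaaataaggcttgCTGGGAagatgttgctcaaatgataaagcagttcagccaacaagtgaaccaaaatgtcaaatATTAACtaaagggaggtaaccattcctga
Fgg: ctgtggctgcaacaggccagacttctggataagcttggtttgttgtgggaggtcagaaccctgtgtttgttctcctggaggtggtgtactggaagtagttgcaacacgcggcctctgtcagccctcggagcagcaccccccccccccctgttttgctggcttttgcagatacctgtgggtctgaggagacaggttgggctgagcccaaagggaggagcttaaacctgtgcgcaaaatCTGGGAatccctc
CTGGGA was present once in each window, beginning at -121 in *Fga*, -91 in *Fgb* and -13 in *Fgg* relative to the start, and in 12 of the 27 liver-made members with a sequence, against 27.0% of 32851 promoter windows of the same length. GTTAAT was found on the reverse strand of *Fga* at -43 and of *Fgb* at -29, not in *Fgg*, and in 8 of the 27 members, against 6.43% of all windows. The longer HNF4 core CAAAGTCCA was in 0 of the 27 (0.384% of windows), and GAGGAAG, a core for the macrophage factor PU.1, in 10.6% of windows. GAGGAAG was in 1 of 5 windows of leukocyte-made complement genes, 2 of 6 of the other vessel-wall and leukocyte genes and 1 of the 27 liver-made ones, namely *Fgb*, where the match is not capitalised. Such matches are letters in a sequence and were not tested as binding sites.

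*F13b*, the carrier subunit of the transglutaminase that crosslinks fibrin, had signals of 13318 and 12285 in G9aΔHep liver, against 14617 and 13961 in WT liver. These groups did not overlap, and differed by -0.16 on the log2 scale (SE 0.10, adjusted p = 0.657). The catalytic subunit *F13a1*, a product of macrophages and platelets, was Present on the first G9aΔHep array alone. *Fgl1*, a fibrinogen-like protein secreted by hepatocytes, had a difference of -0.14 (SE 0.18). *Fgl2*, a membrane-bound prothrombinase of macrophages and endothelium, had signals of 541.4 and 248.0 in G9aΔHep liver, against 234.7 and 246.4 in WT liver. The groups did not overlap, the second G9aΔHep mouse being just above the WT mice. The log2 difference was 0.61 (SE 0.38, adjusted p = 0.65), and 0.04 without the first G9aΔHep mouse. Its other detected probe set, 1421854_at, had 129.7 and 113.8 in G9aΔHep liver, against 98.52 and 90.41 in WT liver, also without overlap (log2 difference 0.36, SE 0.34).

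In fibrinolysis, *Plg*, plasminogen, had signals of 54570 and 44254 in G9aΔHep liver, against 53297 and 44972 in WT liver. Here the mice of a genotype differed by 1.23-fold and 1.19-fold, and the genotypes by a log2 difference of 0.01 (SE 0.14, 95% interval -0.34 to 0.35). *Hrg*, histidine-rich glycoprotein, had -0.02 (SE 0.14). The activator *Plat*, tissue plasminogen activator, had signals of 187.6 and 87.35 in G9aΔHep liver, against 110.2 and 99.26 in WT liver, where 3 of the 4 signals lay below the level that holds 95% of Absent ones. *Plau*, urokinase, was Absent on all arrays at both probe sets. Its receptor *Plaur* had 194.4 and 203.0 in G9aΔHep liver, both Present, against 149.9, Absent, and 168.7, Present, in WT liver (log2 difference 0.32, SE 0.26). Both WT signals lay below the level that holds 95% of Absent ones.

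*A2m*, alpha-2-macroglobulin, had the largest log2 difference of the list, 2.52, with an SE of 1.41 and an adjusted p of 0.614 from limma. Its signals were 104.3, Present, and 116.8, Absent, in G9aΔHep liver, against 91.84, Present, and 4.043, Absent, in WT liver. All 4 lay below the level that holds 95% of Absent signals, and the difference was 0.27 without the second WT mouse. In mice the protease inhibitor *Pzp* takes the main part of alpha-2-macroglobulin in plasma; it had signals of 68382 and 58661 in G9aΔHep liver, against 70222 and 62978 in WT liver (log2 difference -0.07, SE 0.11).

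**Figure D4:**
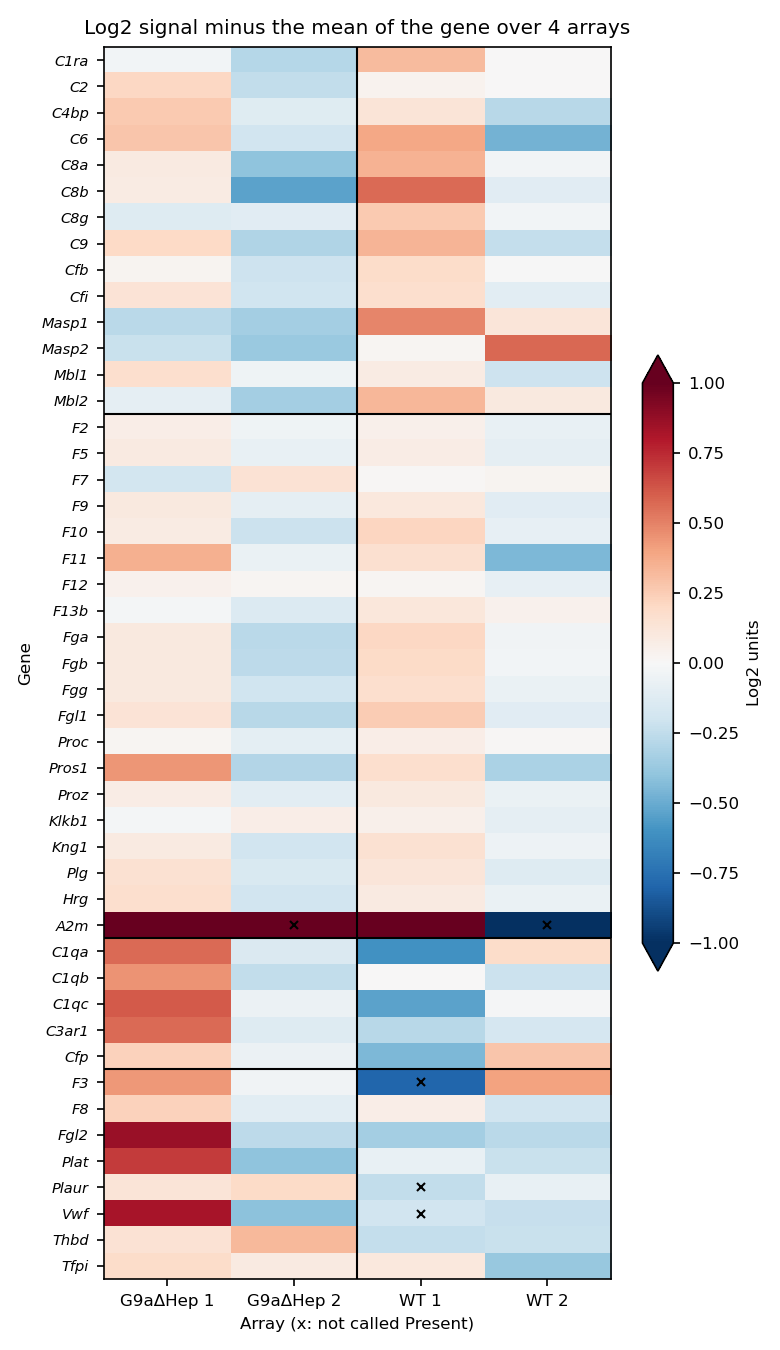
Log2 signal of each tested gene (rows) minus its mean over the 4 arrays, by mouse (columns); crosses mark signals not called Present, black lines separate the 4 gene lists and the colour range stops at 1 in either direction. *Fga*, *Fgb* and *Fgg* show the same shading in each mouse, and *A2m* is set apart by its signal of 4.043 in the second WT mouse.

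Genes of the vessel wall had higher mean signals in G9aΔHep liver. *Thbd*, thrombomodulin, which turns thrombin into an activator of protein C, had signals of 467.3 and 528.9 in G9aΔHep liver, against 358.9 and 361.9 in WT liver. Both G9aΔHep mice were above both WT mice, with a log2 difference of 0.46 (SE 0.19, 95% interval 0.01 to 0.92), an unadjusted p of 0.0472 and an adjusted p of 0.496 from limma. After quantile normalization, after centring or with no detection filter, no member, *Thbd* included, was higher at an unadjusted p under 0.05. *F3*, tissue factor, the initiator of coagulation after injury, had 231.5 and 167.1 in G9aΔHep liver, against 98.92, Absent, and 226.5 in WT liver (log2 difference 0.39, SE 0.45). *Vwf*, von Willebrand factor, had 226.5 and 96.23 in G9aΔHep liver, against 112.1, Absent, and 109.0 in WT liver (log2 difference 0.42, SE 0.47), where the first G9aΔHep mouse stood above the other 3. *Tfpi*, the inhibitor of the tissue factor complex, had 402.0 and 376.1 in G9aΔHep liver, against 382.2 and 272.8 in WT liver (log2 difference 0.27, SE 0.24). Of its further detected probe sets, 1451790_a_at had 277.9 and 291.3 in G9aΔHep liver, against 258.9 and 160.0 in WT liver (log2 difference 0.48, SE 0.30). Set 1451791_at had 355.8 and 408.1 in G9aΔHep liver, against 331.8 and 302.2 in WT liver (log2 difference 0.27, SE 0.21). Both were higher without overlap. The dimmest *Tfpi* set, 1452432_at, went the other way, with 174.3 and 110.2 in G9aΔHep liver, against 179.7 and 193.8 in WT liver (log2 difference -0.43, SE 0.33). Over the 8 tested coagulation and fibrinolysis genes of the vessel wall and leukocytes, 8 lay above 0, with a median of 0.36. That median was 0.10 without the first G9aΔHep mouse, 0.18 after quantile normalization and 0.29 over the 5 genes Present on all arrays. Beside them, 11 endothelial markers had a median of 0.02, with 6 above 0, a summed signal of 14636 and 13809 in G9aΔHep liver, against 15898 and 13318 in WT liver. Of these markers, 2 were higher and 1 was lower in G9aΔHep liver without overlap, against 22.3% and 19.3% of all genes. *Cdh5*, the cadherin of endothelial junctions, had 663.6 and 564.3 in G9aΔHep liver, against 408.5 and 529.8 in WT liver (adjusted p = 0.588), and *Lyve1*, a receptor of sinusoidal endothelium, had 759.0 and 550.4, against 1025 and 1639 (adjusted p = 0.32). Markers of stellate cells and fibroblasts had a median of 0.60, with 8 of 8 above 0 and a summed signal of 20564 and 12648, against 10743 and 15369. Most of that sum came from *Dcn*, with 12203 and 8238 in G9aΔHep liver, against 6761 and 11124 in WT liver. For 5 of the 8 the groups did not overlap, all higher in G9aΔHep liver, against 22.3% of all genes, and 0 passed the test. The part of these markers in the vessel wall values was not tested.

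Differences between mice of a genotype were set beside those between genotypes. The mean difference between single mice of a genotype exceeded that between the genotype means for 35 of the 47 members, against 58.4% of all genes, and for 26 of the 34 liver-made ones. Means of mice vary less than single mice, so such an excess arises often without any genotype effect. These counts therefore do not show that mice of a genotype differed more than the genotypes did. In G9aΔHep liver, 30 of the 34 liver-made members were higher in the first mouse than in the second, and in WT liver 32 of 34, where 5406 and 5172 of all 10350 genes were so. For 29 of the 34 both held, as for 29.4% of all genes. The median log2 difference between the mice was 0.27 in G9aΔHep liver and 0.24 in WT liver, and the median between the genotype means over the same genes was -0.07. General hepatocyte markers divided the same way, with 8 of 10 higher in the first G9aΔHep mouse and 8 of 10 in the first WT mouse, and a summed signal of 571529 and 515267 in G9aΔHep liver, against 573731 and 559957 in WT liver. So did the acute phase proteins, whose liver synthesis rises in inflammation, with 12 of 14 and 14 of 14. Their summed signal was 309612 and 232556 in G9aΔHep liver, against 341411 and 231819 in WT liver. The numbers of the mice only name them and pair no mouse across genotypes, and the genes of 1 liver are not independent of each other. The leukocyte-made complement genes split differently in WT liver, where 1 of 5 was higher in the first mouse and 5 of 5 were so in G9aΔHep liver.

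**Figure D5:**
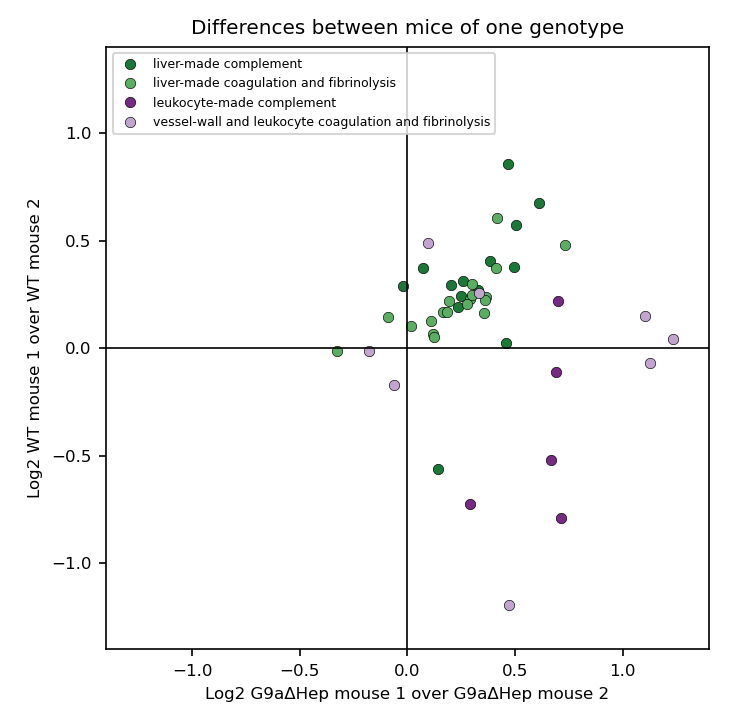
Log2 ratio of the first over the second G9aΔHep mouse (horizontal) and of the first over the second WT mouse (vertical) for each tested gene, with *A2m* left out because its WT ratio of 22.7-fold lies off the axis. Most liver-made genes fall in the upper right part, and 4 of the 5 leukocyte-made complement genes fall below the horizontal line.

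Further genes of both systems, from lists written by function, gave the same picture of values short of the threshold. Of 33 other complement genes, 18 were tested, 0 passed in either direction, 9 lay above 0 and the median was 0.02. *Colec12*, a collectin scavenger receptor, had signals of 528.8 and 429.9 in G9aΔHep liver, against 814.4 and 756.6 in WT liver, with no overlap (log2 difference -0.72, SE 0.18, adjusted p = 0.287 from limma). *C1qbp*, a mitochondrial protein that can bind C1q, had -0.29 (SE 0.11, adjusted p = 0.474), and *Vsig4*, the complement receptor of Kupffer cells, had 0.46 (SE 0.21, adjusted p = 0.543). Of 27 other genes of haemostasis, 17 were tested, 0 passed in either direction and the median was -0.06. *S100a10*, which with annexin A2 forms a plasminogen receptor on cell surfaces, had signals of 14249 and 18615 in G9aΔHep liver, against 7022 and 9849 in WT liver. Both G9aΔHep mice were well above the WT mice (log2 difference 0.97, SE 0.20, adjusted p = 0.188). Its partner *Anxa2* had 1170 and 851.7 in G9aΔHep liver, against 704.0 and 738.5 in WT liver, also without overlap (log2 difference 0.47, SE 0.20, adjusted p = 0.511). *Hgfac*, a serine protease related to factor XII that activates hepatocyte growth factor, had 4879 and 4267 in G9aΔHep liver, against 3209 and 2471 in WT liver (log2 difference 0.70, SE 0.17, adjusted p = 0.244). *Vkorc1*, the reductase that recycles vitamin K for the carboxylation of clotting factors, had 16900 and 17819 in G9aΔHep liver, against 20812 and 21026 in WT liver, a difference of -0.27 with an SE of 0.09 (adjusted p = 0.431), while the substrates of that reaction among the members had differences of -0.13 to 0.15.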

How the data were processed

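Non-tumorous liver RNA of 2 G9aΔHep and 2 WT mice was hybridised to 1 GeneChip array per mouse, and genotypes were taken from the labels. The deposited values are linear intensity signals, which the authors' MAS5 software (version not given in the sources used here) corrected for background and scaled, each with a deposited detection p-value (not used here) and call. The trimmed mean was 500.0 on each array, and the series matrix held the same signals (largest relative difference 5e-06). Probe sets that named 1 gene numbered 34945; those that named several (932) or none (9160) and 64 controls were left out. Log2 signals of 10350 genes were compared with limma 3.58.1 in R 4.3.3 (lmFit, eBayes with a mean-variance trend, no pseudocount, 2 residual and 4.02 prior degrees of freedom), after a test on simulated data. Probe sets Present on at least 2 arrays (17158) were also fitted one by one, and standard errors and adjusted p-values of further probe sets come from that fit. A gene's probe set was the brightest detected one. Intervals are unadjusted. The number of arrays limits the precision.

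The members and lists were chosen with earlier results of these data known. Signals of all arrays were given for members past the threshold, for the 10 with the largest difference in each direction among those whose groups were apart and whose higher group was Present on each array, for C1q and fibrinogen subunits, for *C2* and *Cfb*, and for members whose probe sets disagreed. Of the other pathway lists the 3 genes with the smallest p were named, and of the macrophage markers the 2 brightest. *A2m*, *F2*, *Plg*, further members given to cover each role, *Anxa2*, *Pzp*, *Cdh5*, *Lyve1* and *Dcn* fall outside this rule and were added with their values in view. Promoter sequences were found for 39 of the 53 members.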

Additional observations from a re-analysis of the deposited data

How the results depend on the processing

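No member passed the adjusted test in either direction under any of the 13 alternatives: the mean of all detected probe sets, no detection filter, Present on all 4 arrays, an added 50, quantile normalization, centring, no mean-variance trend, the methods' t-test, the series matrix and leaving out each mouse. With a mouse left out its genotype had 1 array, which was assumed to vary like the 2 of the other genotype, so these 4 fits are weak tests. At an unadjusted p under 0.05, 0 to 6 members were higher and 0 to 6 lower over these settings. The sign of the difference turned in at least 1 of them for 30 of the 47 members, none with a difference above 0.42 in size, and was the same for 17 (8 higher, 9 lower) in each alternative that gave them a value (*A2m* and *Plaur* had none with Present on all 4 arrays), *Masp1*, *Masp2*, *Mbl2*, *C1qa*, *C1qc* and *Thbd* among them. When single mice were left out, the median of the vessel-wall and leukocyte coagulation genes ranged from 0.10 to 0.50, that of leukocyte-made complement from 0.07 to 0.78, that of liver-made complement from -0.37 to -0.07 and that of liver-made coagulation from -0.14 to 0.06. After quantile normalization these medians were 0.18, 0.29, -0.12 and 0.04. Over all genes, calls higher and lower were 11 and 4 with no detection filter, 19 and 7 when Present on all arrays, and 0 and 0 both without the trend (645 and 318 at an unadjusted p under 0.05) and with adjusted p-values of the methods' t-test (449 and 406 unadjusted). Without 1 mouse they were 8 to 54 and 0 to 17. No paired analysis was possible because the labels give no number shared between genotypes. Signals near the Absent level, as for *A2m*, *Plat*, *Plaur*, *Vwf* and *F3*, limit what can be read from their differences.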
